A study of Homo sapiens with 12 samples.

Results

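A panel of 9 genes that mark astrocytes and glial progenitors was followed through an ADAR3 RNA immunoprecipitation: GFAP, VIM, NES, SOX2, SOX9, CHI3L1, AQP4, S100B and FABP7. The genes were taken by their Ensembl identifiers from a fixed list. Of the 9 genes, 7 had values among the 31707 genes of the tables used here. SOX2 and FABP7 were not analysed here. The study used U373-MG, an established human glioblastoma line, with no other line or untransformed astrocytes beside it. All cells were crosslinked with ultraviolet light at 150 mJ/cm2, lysed and sonicated. The 12 libraries form 3 groups of 4: immunoprecipitation (IP) with antibody to endogenous ADAR3, IP with pre-immune serum, which is the control for RNA recovered without a specific antibody, and input RNA set aside before IP. No group carries a transgene, knockdown or drug. The labels do not say whether the replicates were separate cultures, so any p-value covers only how far these libraries differ, and that may be technical.

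Astrocytes and their progenitors share a cytoskeleton of intermediate filaments whose makeup shifts with maturity. Progenitors and reactive cells are known for nestin (NES) and vimentin (VIM), and mature astrocytes for glial fibrillary acidic protein (GFAP). SOX9 is a transcription factor that sets glial fate, S100B is a calcium-binding protein of astrocytes, AQP4 is the water channel of their end-feet, and CHI3L1 is a secreted glycoprotein of reactive astrocytes and mesenchymal glioblastoma. ADAR3 is a brain-enriched protein that binds double-stranded RNA and has no known editing activity. The comparison of ADAR3 IP with serum IP asks whether any of these mRNAs was held by ADAR3 beyond background recovery.

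Depth differed between the groups. Totals over genes ran from 23999234 to 30156884 reads with the ADAR3 antibody, from 1875461 to 4946149 with serum and from 4873428 to 12772412 for input. Levels are given in CPM, a gene's recovered whole reads scaled to its library's own total. They are shares of a library and not amounts of RNA recovered. CPM is not corrected for gene length, so levels are compared between groups and not between genes. The authors normalized the input table apart from the IP table; differences from input are given as a description, with no test.

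**Figure D1:**
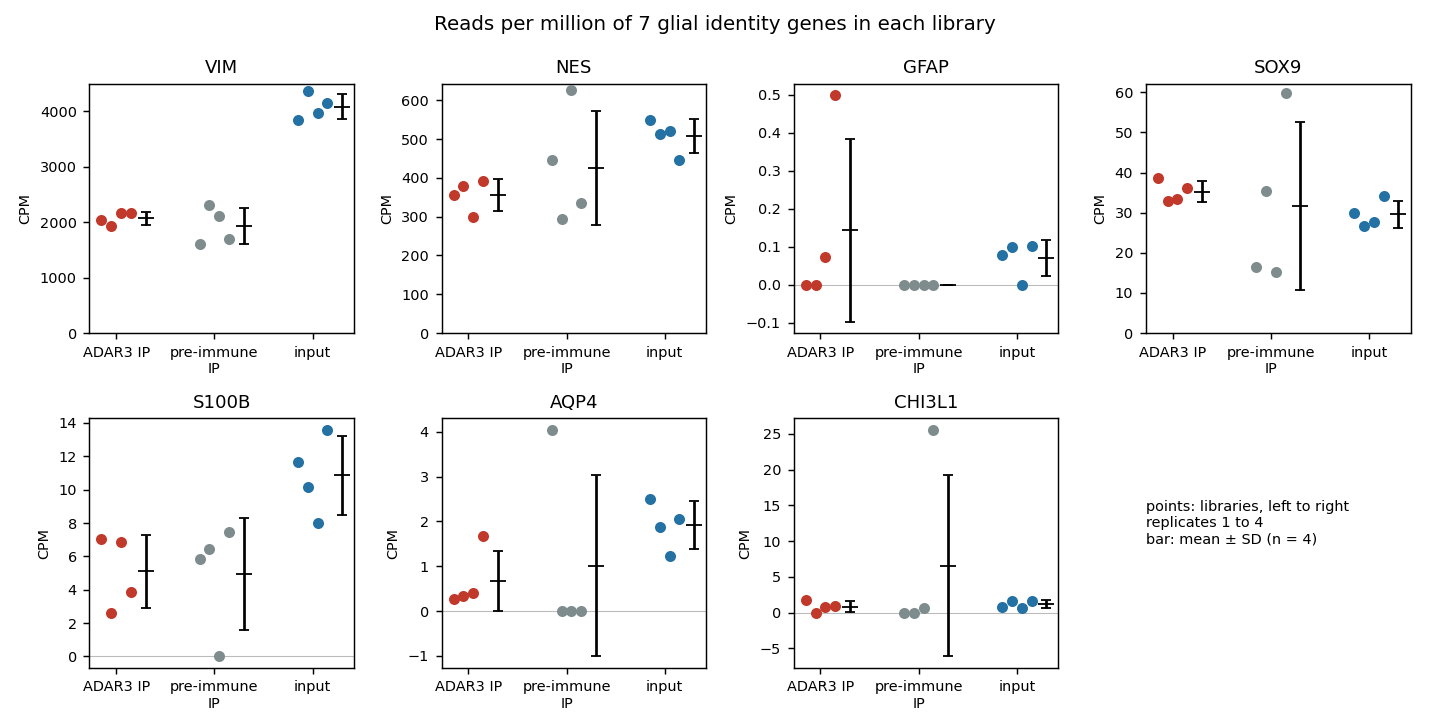
CPM (linear axis from each panel's own scale) of the 7 measured genes in the 4 ADAR3 IP, 4 pre-immune IP and 4 input libraries; each point is a library, replicates 1 to 4 from left to right, and bars show mean ± SD. VIM sits at 1607 to 2301 CPM in both IPs and at 3844 to 4361 CPM in input, while CHI3L1 and AQP4 owe their pre-immune means to 1 library each.

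VIM was the member with the clearest pattern: its share of reads was close to equal in the IPs and lower in both of them than in input. VIM (ENSG00000026025; GRCh38 chromosome 10, 17228241 to 17237593) encodes the vimentin filament of mesenchymal and progenitor cells. Its level was 2031, 1928, 2170 and 2166 CPM in ADAR3 IP replicates 1 to 4. In pre-immune IP it was 1607, 2301, 2117 and 1703 CPM. In input it was 3844, 4361, 3973 and 4151 CPM. Both IPs overlapped each other and lay wholly below input. Mean CPM (± SD, n = 4 each) was 2074 ± 116 with the ADAR3 antibody, 1932 ± 331 with serum and 4082 ± 224 for input. VIM thus made up 0.207% of ADAR3 IP reads, 0.193% of pre-immune reads and 0.408% of input reads. The log2 ratio to input was -0.98 ± 0.057 (SE) in ADAR3 IP and -1.08 ± 0.13 in serum IP. In fold terms, input held 1.97 times the ADAR3 IP share and 2.11 times the pre-immune share. The VIM locus overlaps the antisense gene VIM-AS1, and whether reads were counted by strand is not stated in the sources used here; reads of the pair cannot be told apart.

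NES, which encodes the nestin filament of neural progenitors, was lower in ADAR3 IP than in input to a smaller extent than VIM. NES (ENSG00000132688) lies on chromosome 1 from 156668763 to 156677407. Its level was 356, 378, 299 and 393 CPM in ADAR3 IP and 446, 294, 625 and 335 CPM in pre-immune IP. Input held 549, 513, 521 and 447 CPM. All ADAR3 IP libraries were below all input libraries, whereas the pre-immune libraries spanned the input range. The log2 ratio to input was -0.51 ± 0.10 (SE) in ADAR3 IP and -0.26 ± 0.26 in serum IP. Replicates varied by a coefficient of variation of 11.5% with the ADAR3 antibody, 34.8% with serum and 8.57% for input.

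GFAP, the filament that defines mature astrocytes, was almost undetected. GFAP (ENSG00000131095) lies on chromosome 17 from 44903159 to 44915500. Input replicates 1 to 4 had 1, 1, 0 and 1 reads, a pooled level of 0.0800 CPM. ADAR3 IP had 0, 0, 2 and 12 reads, and pre-immune IP 0 in all 4 libraries. A count of 0 allows up to 0.607, 1.07, 0.683 and 1.60 CPM in pre-immune replicates 1 to 4, above the highest GFAP level of any library, 0.500 CPM in ADAR3 IP replicate 4. A difference in GFAP between the IPs was therefore not detectable at this depth. RefSeq places FAM187A and DNAAF19 across the same span, which makes the few reads uncertain. In bulk RNA, fewer cells with a transcript and less of it per cell cannot be told apart.

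SOX9 was recovered in ADAR3 IP at about its input share and varied widely in the serum IP. SOX9 (ENSG00000125398; chromosome 17, 72121020 to 72126416) had 38.5, 32.8, 33.5 and 36.1 CPM in ADAR3 IP and 29.9, 26.6, 27.7 and 34.1 CPM in input. ADAR3 IP overlapped input only through input replicate 4, and the mean log2 ratio to input was 0.25 ± 0.097 (SE). Without that library every ADAR3 IP value exceeded every input value, at a log2 ratio of 0.33. With all libraries kept, 24.6% of the 15212 genes with a mean of at least 1 CPM lay wholly above input in ADAR3 IP. That share without input replicate 4 was not computed, so the SOX9 separation is not shown to be unusual. Pre-immune libraries held 16.4, 35.4, 15.3 and 59.7 CPM, which encloses all values of ADAR3 IP and input. Their log2 ratio to input was 0.10 ± 0.48 (SE).

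S100B was lower in both IPs than in input, with some libraries far lower than others. S100B (ENSG00000160307; chromosome 21, 46598604 to 46605082) had 11.7, 10.2, 8.003 and 13.6 CPM in input. ADAR3 IP held 7.04, 2.62, 6.86 and 3.88 CPM, from 79 to 204 reads a library. Pre-immune IP held 5.86, 6.44, 0 and 7.46 CPM, from 29, 18, 0 and 14 reads. The highest value of either IP lay below the lowest input value. The log2 ratio to input was -1.09 ± 0.35 (SE) in ADAR3 IP and -1.14 ± 0.52 in serum IP. In pre-immune replicate 3 the absence of reads allows at most 0.683 CPM, so that library was below the other 3 by more than counting error.

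AQP4 and CHI3L1 were scarce, and a single library dominated each of them in the serum IP. AQP4 (ENSG00000171885; chromosome 18, 26852038 to 26865803) had 2.51, 1.88, 1.23 and 2.06 CPM in input. ADAR3 IP held 0.276, 0.332, 0.404 and 1.67 CPM, so replicate 4 reached the input range and the other 3 did not. All 20 pre-immune AQP4 reads came from replicate 1, at 4.04 CPM, above every input library. The locus overlaps AQP4-AS1, with the same limit on strand as for VIM.

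CHI3L1 (ENSG00000133048; chromosome 1, 203178931 to 203186704) had 0.861, 1.68, 0.616 and 1.65 CPM in input and 1.79, 0, 0.734 and 0.917 CPM in ADAR3 IP. ADAR3 IP replicate 2, the deepest library of the series, had no CHI3L1 read, while replicate 1 had 52. Pre-immune IP had 0, 0, 3 and 48 reads, and the 48 reads in replicate 4 gave 25.6 CPM. That library holds 94.1% of all pre-immune CHI3L1 reads. The mean log2 ratio of pre-immune IP to input was 2.45 ± 1.43 (SE) with it and -2.40 without it, so its direction rests on that library. The span overlaps MYBPH in RefSeq.

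**Figure D2:**
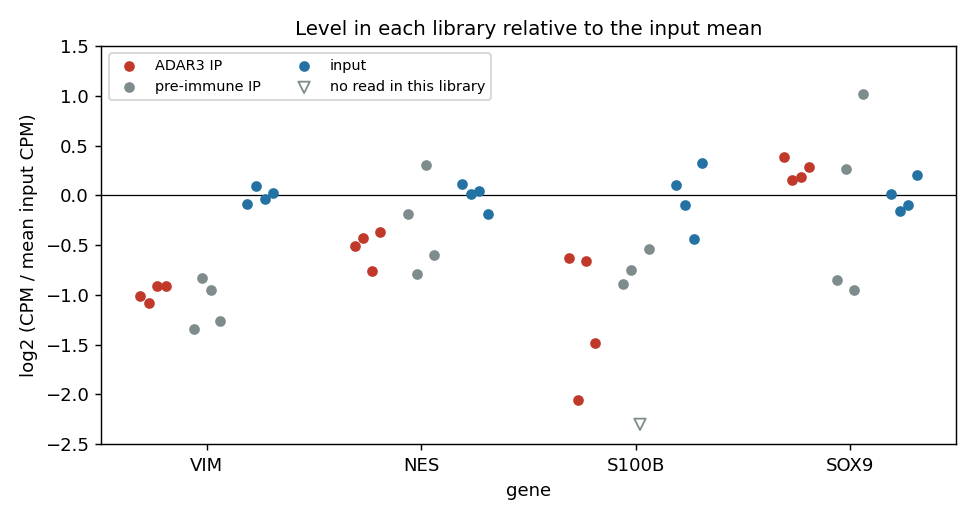
Log2 of CPM over the mean input CPM (vertical axis) for VIM, NES, S100B and SOX9; each point is 1 library, and an open triangle marks a library with no read. VIM lies between -1.35 and -0.83 in all 8 IP libraries, and SOX9 between 0.15 and 0.38 in ADAR3 IP but between -0.95 and 1.01 in pre-immune IP.

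Counts over the panel were read against all genes with a mean of at least 1 CPM over the 12 libraries, 15212 genes that include 6 of the 7 members (not GFAP). CHI3L1 reaches that mean only through pre-immune replicate 4, and AQP4 only through pre-immune replicate 1. In ADAR3 IP, 3 of the 6 (VIM, NES and S100B) lay wholly below input, against 26.6% of all such genes. None lay wholly above input, against 24.6%. In pre-immune IP, 2 of the 6 (VIM and S100B) lay wholly below input, against 18.3%, and none wholly above, against 4.45%. With median-ratio factors over all 12 libraries the pre-immune count was 1, VIM alone, as S100B then overlapped input. Those factors moved the median log2 ratio of pre-immune IP to input from -0.0010 to 0.12 over compared genes with reads in both groups. Over the compared genes the log2 ratio to input had a median of 0.058 and quartiles of -0.52 and 0.58 in ADAR3 IP, and a median of -0.0010 and quartiles of -0.59 and 0.54 in pre-immune IP. VIM and S100B thus lay below the lower quartile in both IPs, NES and SOX9 between the quartiles. AQP4 was also below the lower quartile in both, at -1.52 ± 0.75 (SE) with the antibody and -0.92 ± 1.46 with serum, where its reads came from 1 library. CHI3L1 was between the quartiles in ADAR3 IP, at -0.48 ± 0.70 (SE), and above the upper quartile in pre-immune IP through replicate 4. By a rule of 1.5-fold between means in place of no overlap, VIM, AQP4 and S100B were below input in both IPs. NES, at 1.42-fold in ADAR3 IP, was not. The shares of all genes under that rule and under median-ratio factors were not computed, so these counts have no level to be read against.

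Ratios of reads within a library do not depend on how libraries are scaled. VIM had 52.7, 58.8, 64.7 and 60.0 reads per SOX9 read in ADAR3 IP, and 129, 164, 143 and 122 in input. The groups did not overlap, and the means were 59.1 ± 4.94 and 139 ± 18.8 (SD, n = 4 each). NES reads per SOX9 read were 8.93 to 11.5 in ADAR3 IP and 13.1 to 19.3 in input, again without overlap. S100B reads per SOX9 read were 0.0799 to 0.205 in ADAR3 IP and 0.289 to 0.399 in input. Relative to SOX9, then, VIM, NES and S100B were each scarcer in ADAR3 IP than in input. SOX9 had the highest ratio to input of the compared members in ADAR3 IP. These ratios therefore largely follow from the CPM values above and are no separate support for them. The share of all genes whose ratio to SOX9 also separated was not counted here. In pre-immune IP the 3 ratios were 28.5 to 139, 5.62 to 41.0 and 0 to 0.358, which enclosed the ADAR3 IP range for all 3. VIM reads per NES read were 5.10 to 7.25 in ADAR3 IP and 6.997 to 9.30 in input, which overlap.

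**Figure D3:**
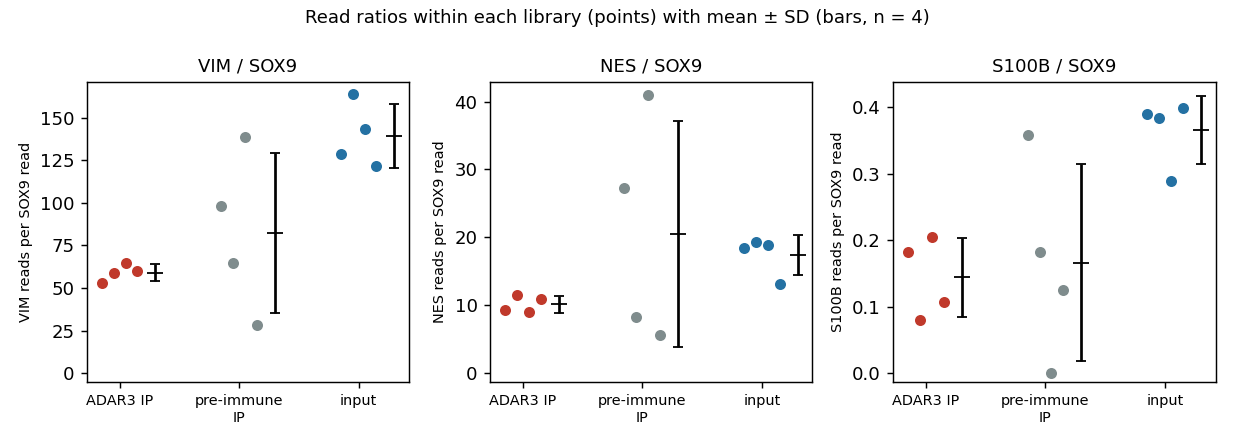
Reads of VIM, NES and S100B per SOX9 read (vertical axes, linear) in each library, with mean ± SD (n = 4) beside the points. ADAR3 IP lies below input in all 3 panels, at 52.7 to 64.7 against 122 to 164 VIM reads per SOX9 read, and pre-immune IP spreads over 28.5 to 139.

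The direct comparison of the antibody with the serum called no member in either direction. The test was limma on log2(normalized count + 1) over the 11112 genes whose normalized counts averaged 50 or more across the IP libraries, of which 3 are members: VIM, NES and SOX9. With Benjamini-Hochberg adjusted p under 0.05, 0 of these 3 were higher and 0 lower in ADAR3 IP. The share called over all tested genes was 2.33% higher and 1.74% lower. At an unadjusted p under 0.05 the limma count was also 0 of 3. On recovered reads edgeR called 0 of 3 members and DESeq2 0 of the 5 with an adjusted p. Over all genes edgeR called 299 higher and 195 lower of 11112, and DESeq2 1571 higher and 1010 lower of 17946.

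For VIM, normalized counts averaged 18436 ± 878 with the ADAR3 antibody and 18162 ± 3028 with serum (SD, n = 4 each). The fitted log2 difference was 0.035, with a 95% interval of -0.26 to 0.33 (limma adjusted p = 0.899). This was the narrowest interval of the 3 members. NES had 3173 ± 391 and 3959 ± 1181 normalized counts, and a log2 fold change of -0.28 with an interval of -0.71 to 0.15 (limma adjusted p = 0.475). Leaving out pre-immune replicate 2 moved NES to -0.42, with an interval of -0.85 to -0.0031 that excludes 0 (limma unadjusted p = 0.0487, adjusted p = 0.226). Leaving out replicate 3 moved it to -0.11. SOX9 had 313 ± 22.2 and 303 ± 207 normalized counts, and a log2 fold change of 0.30 with an interval of -0.76 to 1.35 (limma adjusted p = 0.753). Leaving out pre-immune replicate 4 gave 0.69 for SOX9 and leaving out replicate 3 gave -0.0061, so the sign and size rest on single serum libraries. The median log2 fold change of all tested genes in the limma fit was 0.25, with quartiles of -0.23 and 0.93. On recovered reads the median was -0.00063 with edgeR and -0.061 with DESeq2, so a general shift is not shown. An interval that includes 0 does not show that the IPs were alike. For SOX9 it leaves room for more than a doubling in ADAR3 IP on this scale.

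**Figure D4:**
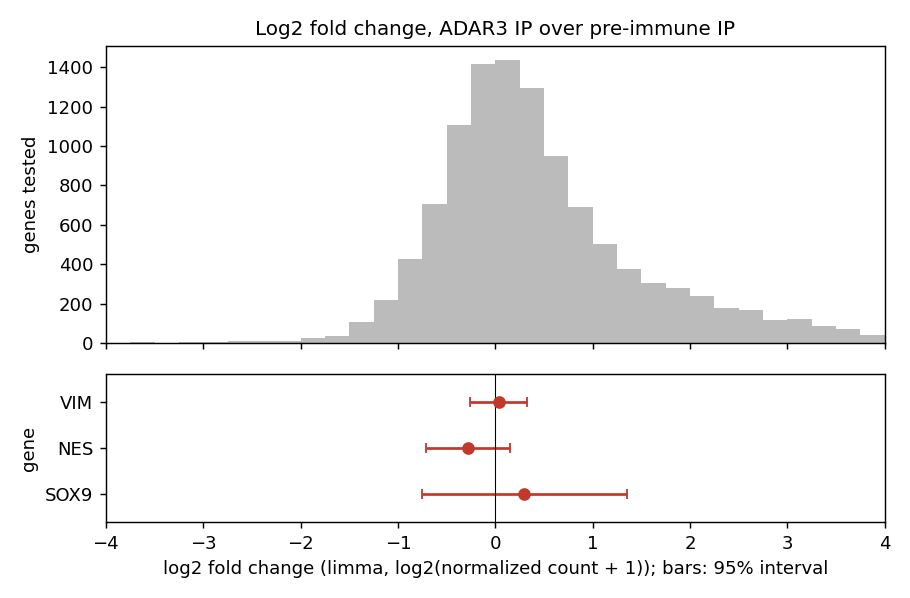
Upper panel, number of tested genes by log2 fold change between antibody and serum IP, drawn from -4 to 4; lower panel, the log2 fold changes of VIM, NES and SOX9 with 95% limma intervals. The intervals of all 3 include 0, from the narrowest for VIM (-0.26 to 0.33) to the widest for SOX9 (-0.76 to 1.35).

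The other 4 measured members were below the minimum mean of 50 set for the main test. Means over the 8 IP libraries were 46.4 normalized counts for S100B, 35.6 for CHI3L1, 7.79 for AQP4 and 0.637 for GFAP. S100B was just outside the minimum of 50, and SOX9, at 308, was the lowest member inside it. Without the filter, limma gave S100B a log2 fold change of 0.92 with an interval of -2.35 to 4.19. Its mean normalized counts were close, 45.2 with the antibody and 47.6 with serum, and pre-immune replicate 3 had no S100B read. The limma adjusted p of the 4 genes ranged from 0.426 to 0.959. In none of the 6 members among the 15212 compared genes did the ADAR3 IP libraries lie wholly above or wholly below the pre-immune libraries in CPM, against 13.2% and 4.0% of those genes. GFAP, outside that set, overlapped at 0 reads.

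The authors' deposited table gives log2 fold changes, antibody over serum, of 0.022 for VIM, -0.32 for NES, 0.065 for SOX9 and of -0.059 for S100B and -0.74 for AQP4. The adjusted p of these 5 in that table ranged from 0.416 to 0.981. For CHI3L1 and GFAP the authors' deposited table gives log2 fold changes of -3.05 and 1.26 without an adjusted p. These deposited values match those of the DESeq2 fit on recovered reads made here, so they are not separate support for it. On the log2(normalized count + 1) scale without the filter CHI3L1 differed by -0.15, and 1 pre-immune library carries most of its reads. AQP4 differed by 1.16 on that scale, with an interval of -1.87 to 4.20 and a sign opposite to the deposited one. All its pre-immune reads came from 1 library.

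Replicate IP libraries spread far more than counting of reads would give, also for the scarce members AQP4, CHI3L1 and S100B, whose input libraries stayed within 4 times counting error. The spread was measured as the variance of a gene's reads between the 4 libraries over the variance expected from depth and counting alone, so a value of 1 means counting error only. AQP4 had 77 reads in input, 69 with the antibody and 20 with serum, and in that order a spread of 1.01, 17.9 and 12.2. CHI3L1 had a spread of 1.94 in input, 18.8 with the antibody and 95.7 with serum. S100B stood at 3.50, 27.2 and 9.55 in the same order. VIM, with many more reads, was already at 132 in input and stood at 184 with the antibody and 199.6 with serum.

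Genes within 2-fold of a member's reads in the same group give the level to read these values against. Their median for AQP4 was 0.988 in input, 13.9 with the antibody and 18.3 with serum. For CHI3L1 it was 0.957, 13.8 and 30.7. For S100B it was 1.23, 15.0 and 31.2. The step from input to the IPs was thus also seen in other genes of similar reads, and the CHI3L1 value in pre-immune IP was above their median. SOX9 was steadier than genes of similar reads in ADAR3 IP, with a spread of 5.58 against a median of 20.4. It was less steady than they were in pre-immune IP, at 43.5 against 29.7, and in input, at 3.42 against 1.58. NES was less steady than genes of similar reads in all 3 groups: 127 against 56.5 in ADAR3 IP, 165 against 41.2 in pre-immune IP and 38.9 against 11.6 in input. Every library went through 15 cycles of amplification; 1 µg of RNA went into each input library, and whatever was recovered into each IP library. The part of starting amount and amplification in this spread was not tested.

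**Figure D5:**
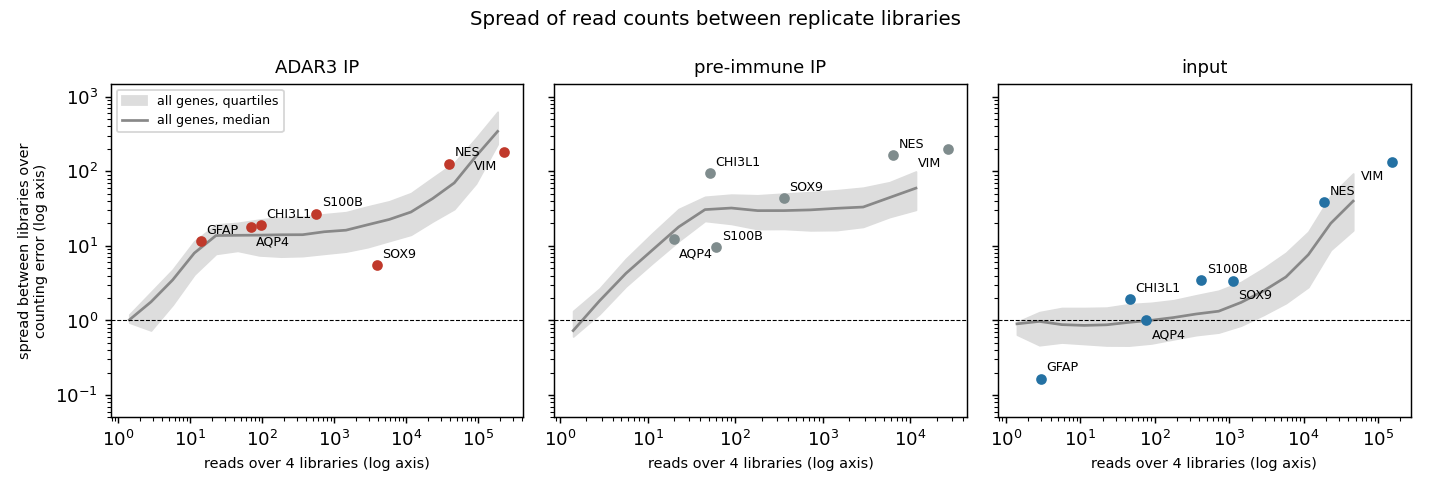
Spread between the 4 libraries of a group over counting error (vertical, log axis) against reads summed over those libraries (horizontal, log axis); coloured points are the members, the grey line and band the median and quartiles of all genes in bins of doubling read number with at least 20 genes, and the dashed line is counting error alone. AQP4 moves from 1.01 in input to 17.9 in ADAR3 IP, and the grey line makes the same step up between those panels.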

How the data were processed

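RNA from 12 U373-MG libraries was analysed, grouped and numbered from their titles. The authors deposited a normalized signal, in which each library's gene counts had been divided by 1 size factor, worked out separately in the IP table (28556 genes) and the input table (28061 genes). The submitters' processing notes list STAR 2.7.7a, featureCounts, DESeq2 and GRCh38 with no roles; annotation and strand setting were not given in the sources used here. Every value (100%) was a whole multiple of 1 read within 0.001 reads, which gave back whole reads and library totals. The authors' deposited log2 fold changes and adjusted p-values were copied from the IP table.

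The main test was limma 3.58.1 (R 4.3.3) on log2(normalized count + 1), with a variance trend, a minimum mean of 50 and Benjamini-Hochberg adjustment over all tested genes. edgeR 4.0.16 and DESeq2 1.42.0 on recovered reads were alternatives. The fit was run on simulated data in which all genes of a group had the same spread, unlike the measured genes. The outcome of that run is not given here and is no support for the calls. No library was a copy of another. Floors use 3 reads and cover counting error only, since reads without molecular identifiers are not independent molecules. Symbols of the members came with their identifiers; the reference table of 59792 genes holds 0 Ensembl identifiers, so other planned gene lists and cell type markers were not analysed here. Coordinates are RefSeq's on GRCh38.p14. The named genes are the 9 listed members, of which the 7 with values are each described. Members, lists and the minimum of 50 were chosen with earlier results of these data known.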

Additional observations from a re-analysis of the deposited data

Results flagged for a closer look

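In 4 of 20 sets of 4 replicate values, 1 library lay far from the other 3 by the 95% limit of Dixon's test. For normally distributed values chance alone marks about 1 set in 20. That rate does not hold for scarce counts: a set with reads in only 1 library, as AQP4 in pre-immune IP, is always marked. An excess over chance is therefore not shown. The 4 sets were CHI3L1 in pre-immune IP (25.6 CPM in replicate 4), AQP4 in pre-immune IP (4.04 CPM in replicate 1), AQP4 in ADAR3 IP (1.67 CPM in replicate 4) and GFAP in ADAR3 IP (0.500 CPM in replicate 4). The reads behind them were 48, 20, 40 and 12. All 4 sets are of scarce genes in IP libraries, and none of the sets from input was marked. ADAR3 IP replicate 4 holds the high value for both AQP4 and GFAP, and is the shallowest of its group.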

How the results depend on the processing

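The counts of 0 members called higher and 0 called lower in ADAR3 IP held under all 19 alternatives. These were other pseudocounts, minimums, scalings, variance weights, edgeR, DESeq2, the replicate block and each library left out. Over all genes, calls higher ran from 106 of 11112 (without ADAR3 IP replicate 2) to 1571 of 17946 (DESeq2). Calls lower ran from 55 of 11112 (variance weights) to 1010 of 17946 (DESeq2). With so few members tested, counts of 0 at such shares do not show that the result is robust. With the replicate block limma gave adjusted p of 0.914 for VIM, 0.487 for NES and 0.789 for SOX9, and called 263 higher and 140 lower genes in all, against 259 and 193. Same-numbered IP libraries correlated at -0.0016 to 0.024, and no ADAR3 IP library correlated best with its own number, so the numbers were not treated as pairs. VIM turned to -0.043 without pre-immune replicate 1 and -0.0057 without replicate 4, and SOX9 to -0.0061 without replicate 3; adjusted p was 0.862 to 0.994 in these fits. With 1 library left out, VIM ranged from -0.043 to 0.14, NES from -0.42 to -0.11 and SOX9 from -0.0061 to 0.69. Under TMM factors the median over tested genes was 0.39 in place of 0.25, and VIM was at 0.18, NES at -0.14 and SOX9 at 0.44. The median was -0.00063 with edgeR and -0.061 with DESeq2, so its sign depends on the method.

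Against input, members wholly below were 3 to 4 in ADAR3 IP and 2 to 3 in pre-immune IP with 1 library left out, and 1 in pre-immune IP with median-ratio factors. Members wholly above were 0 to 1 in ADAR3 IP (SOX9, without input replicate 4) and 0 in pre-immune IP. Shares over all genes with a library left out, with other factors or by the 1.5-fold rule were not computed for the comparisons with input. A rule of 1.5-fold between means gave 3 members below input in each IP (VIM, AQP4 and S100B), so NES dropped out in ADAR3 IP and AQP4 came in. That rule also gave 1 member above input in pre-immune IP (CHI3L1). AQP4 and CHI3L1 reach the mean of 1 CPM only through 1 pre-immune library each. The CHI3L1 count is drawn from that same library and is no support for a difference. These settings and those for log2 ratios to input, the latter chosen after seeing the data, left the mean CPM of VIM and S100B below that of input in both IPs. The log2 ratio of VIM to input ranged from -1.005 to -0.91 in ADAR3 IP and from -1.17 to -0.96 in pre-immune IP. Depth limits GFAP, for which a count of 0 in any pre-immune library allows more than the highest level measured.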
